A study of Homo sapiens with 4 samples.

Results

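The 9 genes described here encode the major histocompatibility complex (MHC) class I molecules and the machinery that loads them with peptide: HLA-B, HLA-C, HLA-E, HLA-F, B2M, TAP1, TAP2, TAPBP and NLRC5. They were taken by gene symbol from a table of 58735 genes, in which each symbol had a single row, and all 9 passed the filter on low counts. RNA was sequenced from HCC1954, an established HER2-positive human breast cancer cell line, in 2 samples carrying a scrambled hairpin (shCON) and 2 in which a hairpin targets the palmitoyltransferase gene ZDHHC15 (shZDHHC15). All 4 samples share the cell line, the GIPZ hairpin vector and culture in RPMI-1640 medium with fetal bovine serum. The labels call the knockdown stable in one place and describe transient transfection with harvest after 36 h in another, and they do not say whether the numbers 1 and 2 stand for separate cultures, clones or hairpins. The p-values therefore measure only the spread between these samples, which may be technical.

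A class I molecule is a heavy chain bound to beta-2 microglobulin (B2M), and it displays short peptides at the cell surface to CD8 T cells. Peptides cut from proteins by the proteasome are carried into the endoplasmic reticulum by the transporter formed by TAP1 and TAP2, where tapasin (TAPBP) holds empty heavy chains beside the transporter and helps to select peptides. NLRC5 is the transactivator of class I genes. It acts on a conserved group of promoter elements. Where a promoter holds them, interferon-stimulated response elements (ISRE) and NF-kappaB elements respond to interferon regulatory factors and to NF-kappaB.

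The promoter sequences of the genes are shown because elements that these factors are known to use lie in them, though not every promoter holds each element. RefSeq promoter windows on GRCh38.p14, which run from 250 bases before to 50 bases after a start site, were found for 7 of the 9 genes, and the entries for HLA-E and NLRC5 are missing. The stretch printed for each gene runs 5′ to 3′ on the strand of the gene. Capitals mark matches on either strand to 5 motifs: ISRE (GAAA, any 2 bases, GAAA), ISRE-like (GAANNGAAA), kB-like (GGGA, any base, T, any 2 bases, CC), the core of the cyclic AMP response element (TGACG) and CCAAT. Where matches touch or overlap, the capitals run on.
HLA-B, chr6:31357221-31357366, minus strand: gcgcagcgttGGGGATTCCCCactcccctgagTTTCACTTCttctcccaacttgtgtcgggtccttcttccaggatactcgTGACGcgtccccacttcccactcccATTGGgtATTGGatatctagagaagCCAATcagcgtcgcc
HLA-C, chr6:31272134-31272294, minus strand: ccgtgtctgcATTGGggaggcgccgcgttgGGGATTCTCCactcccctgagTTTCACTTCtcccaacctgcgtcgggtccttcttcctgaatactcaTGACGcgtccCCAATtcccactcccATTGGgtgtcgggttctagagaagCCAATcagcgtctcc
HLA-F, chr6:29723268-29723391, plus strand: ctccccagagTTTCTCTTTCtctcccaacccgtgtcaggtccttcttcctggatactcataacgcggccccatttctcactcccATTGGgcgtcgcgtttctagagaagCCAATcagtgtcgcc
B2M, chr15:44711363-44711482, plus strand: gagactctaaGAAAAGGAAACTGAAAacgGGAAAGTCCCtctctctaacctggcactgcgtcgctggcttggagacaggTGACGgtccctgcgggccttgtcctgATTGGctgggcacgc
TAP1, chr6:32853757-32853848, minus strand: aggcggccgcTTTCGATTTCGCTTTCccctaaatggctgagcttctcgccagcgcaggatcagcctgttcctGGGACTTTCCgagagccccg
TAP2, chr6:32838760-32838812, minus strand: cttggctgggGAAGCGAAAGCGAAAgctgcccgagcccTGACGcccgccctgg
TAPBP, chr6:33314073-33314108, minus strand: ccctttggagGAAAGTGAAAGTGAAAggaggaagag

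Each of the 7 promoters held an ISRE or an ISRE-like match, against 10.6% of 35116 promoters in the same table. The ISRE itself was found in HLA-F, B2M, TAP1, TAP2 and TAPBP and in 3.57% of all promoters, and the ISRE-like motif in HLA-B, HLA-C and TAP2 and in 7.66%. In B2M, TAP1 and TAPBP a pair of ISRE matches overlapped, and in TAP2 an ISRE match overlapped an ISRE-like one. The distance from the start site differed: counted from the start site, the matches lay at -155 to -147 in HLA-B, at -156 to -147 in HLA-F and at -20 to -5 in TAPBP. The kB-like motif was found in HLA-B, HLA-C, B2M and TAP1 and in 5.13% of all promoters. HLA-B, HLA-C, B2M and TAP2 held the cyclic AMP response element core, which 24.6% of promoters hold, and CCAAT was found in HLA-B, HLA-C, HLA-F, B2M and TAP1, against 34.6% of promoters. The interferon-gamma activated site TTCNNNGAA, present in 7.66% of promoters, was searched too. Among the 7 genes it was found at a second, downstream start of TAP1, whose window held no ISRE, and at no other start. The motifs were chosen with these sequences in view, a match is not a bound site, and binding was not measured.

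**Figure D1:**
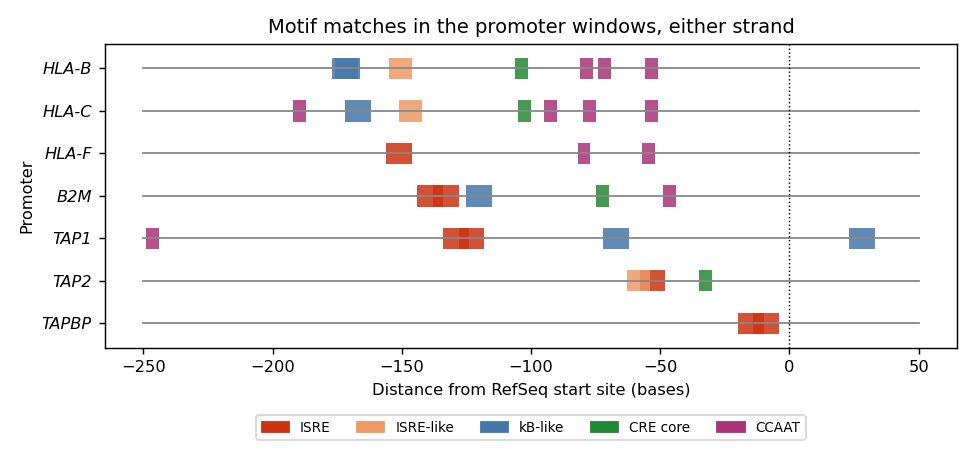
Positions of motif matches on either strand (coloured boxes) in the RefSeq promoters of 7 class I and peptide-loading genes, against the distance in bases from the start site (dotted line); for TAP1 the upstream start is drawn. The ISRE or ISRE-like boxes lie between -156 and -119 in HLA-B, HLA-C, HLA-F, B2M and TAP1 and nearer to the start in TAP2 and TAPBP.

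Total counts per sample were between 17560982 and 19118704, and replicates of a group differed by more than counting noise (chi-square per degree of freedom 8.32 in shCON and 6.79 in shZDHHC15). ZDHHC15, the targeted gene, had 17617 and 15716 counts in shCON and 0 in both shZDHHC15 samples, at least 6045-fold lower against a floor of 3 counts per sample, which covers counting error only. A hairpin usually leaves part of its target transcript, the reason for a count of exactly 0 in both samples was not tested, and the bound describes the counts and not the efficiency of the knockdown. Of the 6 epithelial markers 4 fell: KRT8 from 105283 and 106976 to 34507 and 40916 counts (log2 fold change -1.62), KRT18 from 28599 and 28923 to 9554 and 11445 (-1.58), EPCAM from 4977 and 4241 to 3773 and 4092 (-0.35) and ERBB2 from 101910 and 100029 to 93750 and 92598 (-0.24). KRT19 rose from 343 and 339 to 503 and 506 counts (0.44), and CDH1 did not pass the test (-0.05). The 6 summed to 13604 and 14611 CPM in shCON and 7992 and 7966 CPM in shZDHHC15. PGR had at most 1 count, and ESR1 had 161 and 103 counts in shCON and 308 and 305 in shZDHHC15.

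All 9 class I and peptide-loading genes rose in shZDHHC15 cells (edgeR quasi-likelihood test, Benjamini-Hochberg adjusted p under 0.05 over 15817 genes). Over all tested genes 21.7% were called higher and 20.3% lower, 42.0% in either direction. The log2 fold changes of the 9 genes ran from 0.40 to 1.96 with a median of 0.81, against a median of 0.02 over all tested genes. The 9 genes were chosen with earlier results of these data known, so the contrast with all tested genes is a description only. Of the 9, 4 (HLA-F, NLRC5, TAP1 and TAPBP) also passed a log2 fold change of 1, as did 7.51% of tested genes. In each of the 9, both shZDHHC15 samples lay above both shCON samples in counts-per-million (CPM, with libraries scaled by TMM, edgeR's trimmed mean of M-values), which held for 37.2% of tested genes. The largest ratio between replicates of a group was 1.25, for HLA-F in shZDHHC15. Together the 9 genes took 0.312% and 0.340% of all counts in shCON and 0.631% and 0.576% in shZDHHC15.

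**Figure D2:**
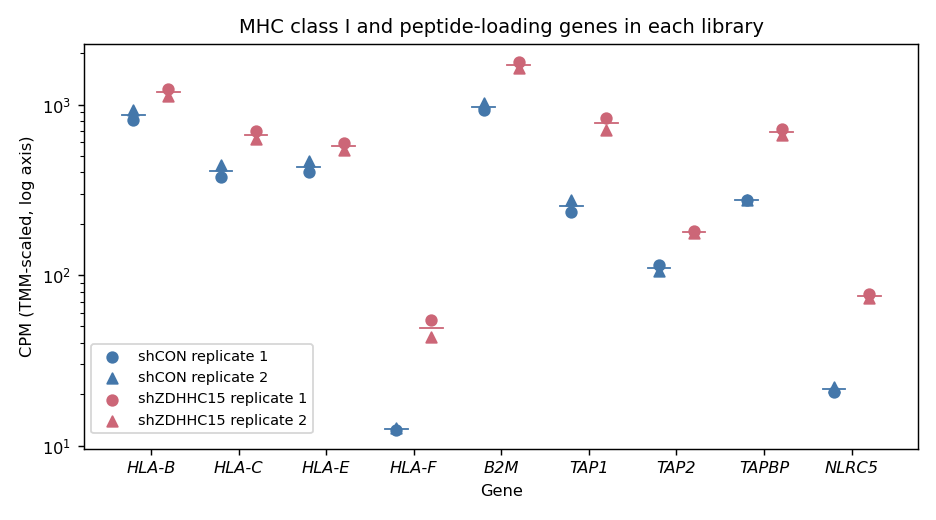
Levels in CPM (TMM-scaled, log axis) of the 9 genes in each of the 4 samples; circles are replicate 1, triangles replicate 2 and lines the group means. Both shZDHHC15 samples lie above both shCON samples for every gene, with the widest separation for HLA-F.

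In bulk RNA, more cells that express a gene and more RNA per cell cannot be told apart. Of 15 leukocyte markers, 7 exceeded 3 counts in any sample and 4 (CD3E, CD3D, MS4A1 and FCGR3A) were at 0 in every sample, and PTPRC, the pan-leukocyte gene, had 1 to 4 counts. The summed level of the 15 was 2.80 and 2.73 CPM in shCON and 3.65 and 2.55 CPM in shZDHHC15. Within this sum CD14 rose from 9 and 5 to 25 and 22 counts (edgeR adjusted p = 0.0158), and CD8A fell from 22 and 21 to 14 and 5 (edgeR adjusted p = 0.0493). The 7 fibroblast and endothelial markers summed to 54.2 and 57.1 CPM in shCON and 113 and 105 CPM in shZDHHC15, and 3 of them rose: PECAM1 (75 and 56 against 666 and 405 counts), CDH5 (807 and 780 against 1224 and 1487 counts) and COL1A1 (100 and 120 against 214 and 161 counts). COL1A2, PDGFRB and DCN had at most 5 counts and VWF at most 7. The part of these genes and of the fall in epithelial markers in the class I result was not tested.

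The classical heavy chains HLA-B and HLA-C present peptides to CD8 T cells and are also read by inhibitory receptors of natural killer cells. HLA-B lies at chr6:31269491-31357188 on the minus strand of GRCh38, and it had 14723 and 15589 counts in shCON and 23123 and 22164 in shZDHHC15. Its mean rose from 866 ± 82.4 to 1186 ± 79.7 CPM (SD, n = 2 per group), a log2 fold change of 0.45 with a standard error of 0.0938 (edgeR adjusted p = 0.00134). The 2 groups did not overlap, and the difference was 1.37-fold.

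HLA-C, at chr6:31268749-31272130 on the same strand, lies mostly within the span of this HLA-B gene model. Its counts were 6900 and 7419 in shCON and 13003 and 12373 in shZDHHC15. The level rose from 409 ± 43.4 to 664 ± 48.1 CPM, by 0.70 on the log2 scale with a standard error of 0.0974 (edgeR adjusted p = 5.06e-05). HLA-C thus rose 1.62-fold, and the ratio of HLA-B to HLA-C counts within a sample was 2.13 and 2.10 in shCON and 1.78 and 1.79 in shZDHHC15, which did not overlap.

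The gene models of HLA-B and HLA-C share 35 bases of exon on the same strand. An exact stretch of 75 bases found in another gene covered none of the principal HLA-B transcript, 1.98% of that of HLA-C and 2.02% of that of HLA-E. These shares refer to the reference alleles, class I genes are highly polymorphic, and the way in which reads of the alleles of HCC1954 were assigned is not given in the sources used here.

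HLA-E is a non-classical heavy chain that mainly binds peptides from the leader sequences of other class I chains and is the ligand of the natural killer cell receptor CD94/NKG2A. It lies at chr6:30489467-30494205 on the plus strand and had 7312 and 7852 counts in shCON and 11148 and 10634 in shZDHHC15. Its level rose 1.32-fold, from 433 ± 45.6 to 570 ± 40.3 CPM (log2 fold change 0.40, standard error 0.0969, edgeR adjusted p = 0.00431). This was the smallest change of the 9, and its call was lost without shZDHHC15 replicate 1 (adjusted p = 0.0644) and against a null of a 1.2-fold change (adjusted p = 0.0933).

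HLA-F, a non-classical chain that can reach the surface without peptide, had the largest log2 fold change of the 9 genes. The gene, at chr6:29722775-29738528 on the plus strand, had 224 and 215 counts in shCON and 1010 and 850 in shZDHHC15. Its level rose 3.89-fold, from 12.5 ± 0.325 to 48.8 ± 7.74 CPM, with a log2 fold change of 1.96 and a standard error of 0.141 (edgeR adjusted p = 6.59e-08). The ratio of HLA-B to HLA-F counts fell from 65.7 and 72.5 to 22.9 and 26.1. The antisense gene HLA-F-AS1 overlaps 12.3% of the exon bases of HLA-F and had 24 to 38 counts per sample, and without a stated strand setting its reads could not be separated from those of HLA-F.

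B2M, the light chain of all of these molecules, lies apart from the complex at chr15:44711487-44718877 on the plus strand. It had 16852 and 17223 counts in shCON and 32927 and 32230 in shZDHHC15. The level rose 1.75-fold, from 973 ± 68.4 to 1705 ± 89.4 CPM, with a log2 fold change of 0.81 and a standard error of 0.0893 (edgeR adjusted p = 5.57e-06). B2M held the median fold change of the 9 genes.

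The 4 heavy chain genes were also summed to a single row, because a sum is not affected by how reads are split among them. It does not cover reads shared with genes outside the 4. Among the 4, only HLA-C and HLA-E shared exact 75-base stretches, over 0.0684% and 0.0396% of their principal transcripts. The sum was 29159 and 31075 counts in shCON and 48284 and 46021 in shZDHHC15, and it rose 1.43-fold (log2 fold change 0.52, standard error 0.0942, edgeR adjusted p = 4.73e-04). Counts of the 4 heavy chains per B2M count were 1.73 and 1.80 in shCON and 1.47 and 1.43 in shZDHHC15. Within each sample the B2M transcripts had thus gained on those of the 4 heavy chains, and the 2 groups did not overlap. Other classical class I genes were not analysed here.

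The transporter subunits differed in their response. TAP1, at chr6:32845209-32853978 on the minus strand, had 4256 and 4657 counts in shCON and 15574 and 14023 in shZDHHC15. It rose 3.04-fold, from 255 ± 30.1 to 775 ± 86.3 CPM (log2 fold change 1.61, standard error 0.107, edgeR adjusted p = 2.66e-08). PSMB8-AS1 is annotated opposite to 9.49% of the exon bases of TAP1 and had 72 and 60 counts in shCON and 232 and 237 in shZDHHC15, few beside those of TAP1.

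TAP2, its partner subunit at chr6:32821833-32838780 on the minus strand, had 2093 and 1774 counts in shCON and 3389 and 3460 in shZDHHC15. It rose 1.63-fold, from 110 ± 6.81 to 179 ± 4.06 CPM (log2 fold change 0.70, standard error 0.0945, edgeR adjusted p = 3.62e-05). TAP1 and TAP2 proteins assemble as a heterodimer, and the ratio of their levels in RPKM (CPM divided by the gene length in kilobases) was 2.70 and 3.49 in shCON and 6.11 and 5.39 in shZDHHC15. The ratio was higher in both shZDHHC15 samples than in either control. AL669918.1, a gene model on the same strand, shares 32.3% of the exon bases of TAP2 and 80.0% of the principal TAP2 transcript recurs as 75-base stretches in other genes, although AL669918.1 itself was assigned at most 3 counts in a sample, so the level of TAP2 is uncertain where the counting dropped ambiguous reads.

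TAPBP lies at chr6:33299694-33314387 on the minus strand and had 5033 and 4664 counts in shCON and 13345 and 12940 in shZDHHC15. Its level rose 2.49-fold, from 276 ± 0.305 to 688 ± 40.7 CPM, with a log2 fold change of 1.32 and a standard error of 0.0889 (edgeR adjusted p = 3.20e-08). The log2 fold changes of TAPBP and TAP1 exceeded those of the classical heavy chains: the 95% intervals of their log2 fold changes, 1.13 to 1.51 and 1.38 to 1.83, lay above those of HLA-B (0.25 to 0.65) and HLA-C (0.49 to 0.91). These intervals are not adjusted for the number of genes.

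NLRC5, at chr16:56989485-57083531 on the plus strand, had 376 and 373 counts in shCON and 1436 and 1441 in shZDHHC15. Its level rose 3.52-fold, from 21.4 ± 1.05 to 75.3 ± 2.62 CPM (log2 fold change 1.82, standard error 0.113, edgeR adjusted p = 1.18e-08). Replicates of the transactivator were nearly the same in each group, and the groups lay far apart. The intervals of the log2 fold change of NLRC5 (1.58 to 2.06), HLA-F (1.66 to 2.26) and TAP1 overlapped. Overlap is not a test of a difference, and the order of these 3 genes was not tested.

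Levels of different genes were compared per length, as RPKM with the exon length given in the table. In shCON the order was HLA-B (284 ± 27.0), HLA-C (163 ± 17.3), B2M (160 ± 11.2), HLA-E (146 ± 15.3), TAPBP (54.6 ± 0.0602), TAP1 (53.0 ± 6.27), TAP2 (17.2 ± 1.07), HLA-F (2.88 ± 0.0748) and NLRC5 (1.73 ± 0.0850). HLA-C, B2M and HLA-E lay within their replicate spread of each other, as did TAPBP and TAP1. In shZDHHC15 cells TAP1 (161 ± 18.0) and TAPBP (136 ± 8.04) lay below HLA-E (192 ± 13.5), and B2M (281 ± 14.7) and HLA-C (265 ± 19.2) remained below HLA-B (389 ± 26.1). With the length of the principal transcript, an alternative chosen after seeing the data, B2M and HLA-B ranked highest in both groups. In shCON B2M (571 ± 40.1 RPKM) and HLA-B (560 ± 53.3 RPKM) lay within their replicate spread of each other. In shZDHHC15 B2M (1000.1 ± 52.4 RPKM) lay above HLA-B (766 ± 51.5 RPKM). With that length TAPBP (364 RPKM) and TAP1 (262 RPKM) lay above HLA-E (219 RPKM) in shZDHHC15, so the order of these 3 genes depends on the length used. The scarcer genes in shCON had the larger log2 fold changes (Pearson r = -0.81, Spearman rho = -0.77 over the 9 genes), a description only, since both measures contain the same shCON samples and genes are not replicates.

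**Figure D3:**
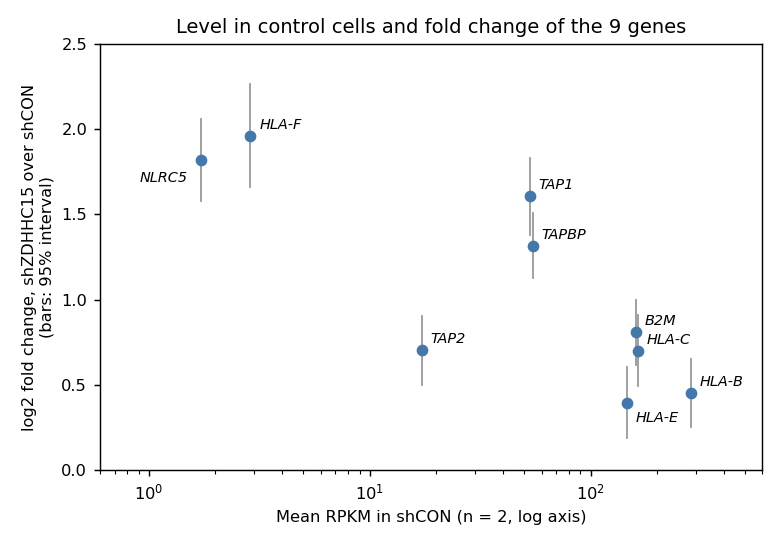
Log2 fold change of each of the 9 genes (vertical axis, bars are 95% intervals) against its mean RPKM in shCON (horizontal log axis, n = 2). HLA-F and NLRC5 lie at the left with the largest changes, HLA-B, HLA-C, HLA-E and B2M at the right with log2 fold changes of 0.40 to 0.81, and TAP2 at 0.70 lies below TAP1 and TAPBP.

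Of the 9 genes, 7 lie on chromosome 6 between 29.7 and 33.3 Mb, in the MHC, while B2M and NLRC5 lie on chromosomes 15 and 16 and rose as well. The nearest RefSeq starts of TAP1 and of PSMB9, an immunoproteasome subunit, lie 488 bases apart on opposite strands. The promoter window of PSMB9 was searched too and held no ISRE, ISRE-like or kB-like match. Of the 2 windows of PSMB8, another such subunit, the downstream one held an ISRE and an ISRE-like match and the upstream one neither. In the gene models that were counted, TAP1 (chr6:32845209-32853978) lies within the span of PSMB9 (chr6:32844136-32859585). PSMB9 had 896 and 1113 counts in shCON and 4068 and 3384 in shZDHHC15 (log2 fold change 1.76, standard error 0.139, edgeR adjusted p = 1.72e-07). The ratio of TAP1 to PSMB9 counts was 4.75 and 4.18 in shCON and 3.83 and 4.14 in shZDHHC15, means of 4.47 ± 0.400 and 3.99 ± 0.223, a difference close to the spread between replicates.

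The immunoproteasome replaces 3 catalytic subunits of the constitutive proteasome, and it favours peptides that suit class I molecules. Of 9 proteasome genes, 5 rose, 2 fell and 2 did not pass the test, with a median log2 fold change of 0.84. Over all tested genes 21.7% were called higher and 20.3% lower. All 3 immune subunits rose: beside PSMB9, PSMB8 had 2100 and 2273 counts in shCON and 5219 and 4943 in shZDHHC15 (log2 fold change 1.09), and PSMB10 had 215 and 203 against 529 and 541 (1.23). The activator subunits PSME1 (0.84) and PSME2 (1.02) also rose. The constitutive counterparts lay on the other side of zero: PSMB6 (-0.39, adjusted p = 0.00614) and PSMB7 (-0.25, adjusted p = 0.0339) fell, though both calls were lost against a null of a 1.2-fold change (adjusted p = 0.106 and 0.483) and that of PSMB7 under several other alternatives, and PSMB5 (-0.23, adjusted p = 0.0546) and the nuclear activator PSME3 (-0.10) did not pass.

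These subunits could also be compared within a sample, where scaling between samples does not enter. PSMB8 counts per PSMB5 count were 0.631 and 0.702 in shCON and 1.77 and 1.56 in shZDHHC15. PSMB9 per PSMB6 was 0.439 and 0.506 against 2.39 and 1.86, and PSMB10 per PSMB7 was 0.0556 and 0.0531 against 0.153 and 0.151. In each of the 3 pairs the immune subunit gained on its constitutive counterpart in both shZDHHC15 samples. The exons of PSMB8 and PSMB9 overlap on opposite strands over 139 bases, PSMB8-AS1 lies opposite 20.6% of those of PSMB8, and 34.8% of the exon bases of PSMB10 lie in AC040162.1, which had 29 to 47 counts per sample.

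**Figure D4:**
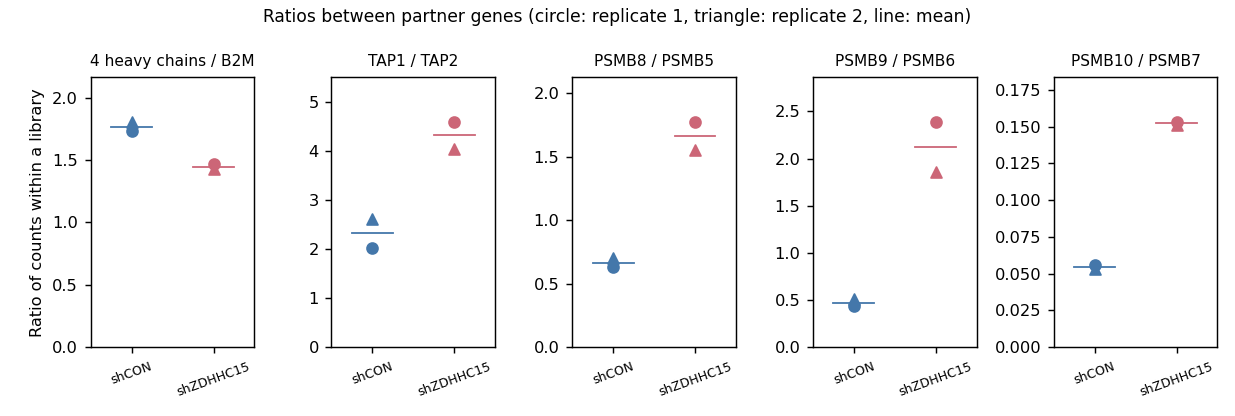
Ratios of counts within each sample for 4 heavy chains over B2M, TAP1 over TAP2, and 3 immune over constitutive proteasome subunits (linear axes from 0; circles replicate 1, triangles replicate 2, lines means). The heavy chain to B2M ratio is lower and the other 4 ratios are higher in both shZDHHC15 samples than in either shCON sample.

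Of 8 chaperone and peptide-trimming genes, 7 rose and 1 fell, with a median log2 fold change of 0.74. Among all tested genes 21.7% were called higher and 20.3% lower. The aminopeptidases ERAP1 and ERAP2 trim peptides to the length that class I molecules hold. ERAP1 had 395 and 358 counts in shCON and 1012 and 969 in shZDHHC15 (log2 fold change 1.27, standard error 0.117, edgeR adjusted p = 8.82e-07), and ERAP2 rose from 47 and 24 to 145 and 127 (log2 fold change 1.81). TAPBPL, the tapasin-related peptide editor, rose from 102 and 104 to 276 and 259 counts (1.25). UGGT1, which marks poorly folded glycoproteins for another round of folding, rose by 0.79, and PDIA3, the disulfide isomerase bound to tapasin, by 0.69 on the log2 scale. The general chaperones CALR (0.46) and CANX (0.44) rose less, and BCAP31, an export receptor of the endoplasmic reticulum, fell (-0.30, adjusted p = 0.0209), a call lost under several alternatives.

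Of 13 genes for transcription factors of class I promoters, 5 rose, 1 fell and 7 did not pass the test, with a median log2 fold change of 0.05. The share called was near the 42.0% called over all tested genes, where 21.7% were higher and 20.3% lower. CIITA, the class II transactivator and a relative of NLRC5, rose from 28 and 25 to 135 and 112 counts (log2 fold change 2.09, standard error 0.271, edgeR adjusted p = 2.54e-05), although 11.6% of its exon bases lie opposite DEXI, which had 92 to 136 counts. The interferon regulatory factor IRF2 rose by 1.05 and IRF1 by 0.49, the latter from 1694 and 1642 to 2626 and 2493 counts. C5orf56 lies opposite 22.0% of the exon bases of IRF1 and had 24 and 25 counts in shCON and 82 and 63 in shZDHHC15.

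Most genes for the DNA-binding partners of NLRC5 did not pass the test, as was so for 9173 of the 15817 tested genes. RFXAP, a subunit of the RFX complex, rose from 91 and 78 to 137 and 141 counts (0.59, adjusted p = 0.0253), and CREB1, which binds the cyclic AMP response element, by 0.44. RFX5 (0.05), RFXANK (-0.05), NFYA (0.05), NFYB (-0.21), NFYC (-0.15) and ATF1 (-0.03) did not pass the test, nor did NFKB1 (0.20). The NF-kappaB subunit gene RELA fell (-0.29, adjusted p = 0.0199). The RFXAP, RELA and CREB1 calls did not hold under every alternative, that of CREB1 being lost against a null of a 1.2-fold change (adjusted p = 0.0753).

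Genes for class I-like molecules and stress ligands of natural killer cells lay on both sides of zero. Of 14 such genes 9 were tested, of which 2 rose, 3 fell and 4 did not pass, with a median log2 fold change of -0.40. For comparison, 21.7% of all tested genes were called higher and 20.3% lower. AZGP1, a secreted class I-like protein, rose from 55 and 53 to 245 and 309 counts (log2 fold change 2.23, edgeR adjusted p = 6.80e-07), and MR1, which presents vitamin B metabolites to mucosal-associated invariant T cells, from 180 and 189 to 478 and 405 (1.14, adjusted p = 4.61e-05). Of the 6 tested ligands of the activating receptor NKG2D, 3 fell: ULBP2 had 885 and 805 counts in shCON and 539 and 596 in shZDHHC15 (-0.70, adjusted p = 1.57e-04), RAET1G 57 and 58 against 19 and 17 (-1.79, adjusted p = 4.77e-04), and MICA 1229 and 1261 against 924 and 1135 (-0.40, adjusted p = 0.00944), the last a call lost without shZDHHC15 replicate 1, with no filter on low counts and against a null of a 1.2-fold change. The other 3, MICB (-0.14), ULBP1 (-0.66) and ULBP3 (-0.45), did not pass, nor did HFE (0.59). The ULBP and RAET1 genes share sequence (20.5% of the principal ULBP2 transcript recurs in other genes as 75-base stretches), so the split of reads among them is uncertain. HLA-G, the non-classical chain of the placenta, had 2 to 4 counts per sample and was not tested, as were CD1D, FCGRT, RAET1E and RAET1L.

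**Figure D5:**
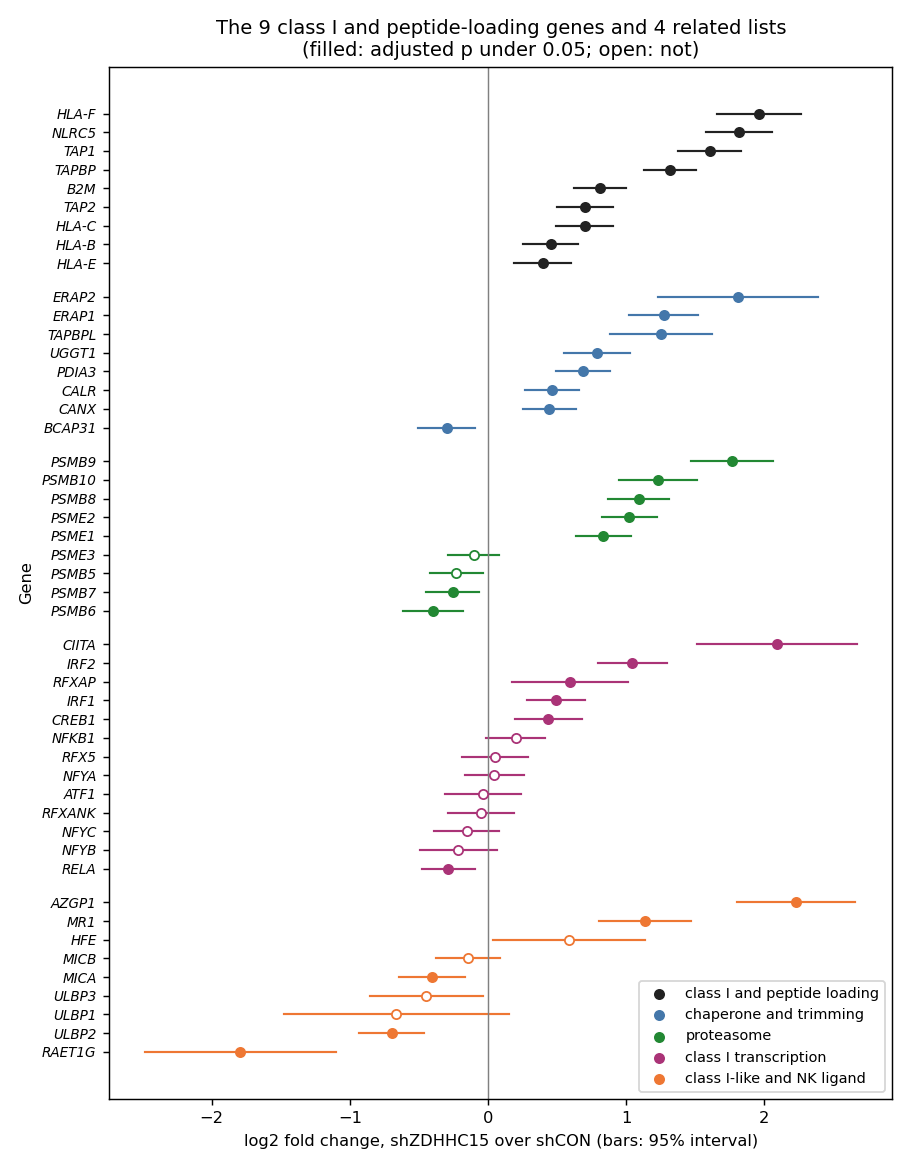
Log2 fold change (shZDHHC15 over shCON, bars are 95% intervals) of the 9 class I and peptide-loading genes and of the tested genes of 4 related lists; filled points have an adjusted p under 0.05. All 9 points lie to the right of 0, while each of the 4 related lists has points on both sides, with BCAP31 as the gene of the chaperone and trimming list on the left.

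The genes whose profile over the 4 samples lay closest to the median centred profile of the 9 were sought among 6938 protein-coding genes whose higher group averaged 500 counts or more. The Euclidean distance on the log2 scale was 0.0453 for PSME1, 0.0459 for NQO1, 0.0517 for ECE1, 0.0534 for LCN2 and 0.0552 for SLC18B1. Among the 9 themselves B2M lay closest, at 0.0822, and HLA-F farthest, at 1.11. With 4 samples in 2 groups this likeness is mostly the size of the difference between groups, and the 5 genes had log2 fold changes between 0.83 and 0.87.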

How the data were processed

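RNA-seq of 4 HCC1954 samples was used, 2 with shCON and 2 with shZDHHC15, grouped by the sample titles. The authors deposited raw counts of reads per gene, not normalized, from total RNA libraries made with the NEBNext Ultra kit. The submitters' processing notes name HISAT2, StringTie, SAMtools and hg38 without giving their roles, and the counting tool and strand setting are not given in the sources used here. All 58735 gene identifiers matched GENCODE 29 with the same start and end, so gene positions are those of the table and GRCh38. All 4 columns were used.

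Genes were filtered with filterByExpr, which left 15817, scaled by TMM and fitted in R 4.3.3 by the functions glmQLFit (legacy = FALSE) and glmQLFTest of edgeR 4.0.16 (limma 3.58.1). A gene was called at a Benjamini-Hochberg adjusted p under 0.05. The common biological coefficient of variation was 0.0877. The smallest two-sided p of an exact permutation test of 2 against 2 samples is 0.333, so single values outside this fit, such as ratios, are given without a test. RPKM used the exon length in the table. Promoters came from RefSeq (GRCh38.p14) and overlaps and shared sequence from GENCODE 29, with Python 3.11.15.

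The 9 genes and the 4 related lists were chosen with earlier results of these data known. From the lists and cell type markers 2 genes are not reported here, and the counts leave them out. The genes named are these 9, the genes of the lists, ZDHHC15, the cell type markers, genes that overlap a named gene, and the 5 closest profiles. Alternatives were DESeq2 1.42.0 (size factors and Wald test), library size only, upper-quartile factors, 2 other filters (none, or 10 or more counts in each sample), a replicate block, glmTreat against 1.2-fold, the legacy quasi-dispersion, a log2 fold change limit of 1 and leaving out each sample. Principal transcript length was added after seeing the data.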

Additional observations from a re-analysis of the deposited data

How the results depend on the processing

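Over 117 fits of the 9 genes under alternatives, 115 kept the direction and the call, 2 kept the direction and lost the call (both HLA-E, given above) and 0 changed direction. The 9 genes higher became 4 with a log2 fold change limit of 1, by the construction of that limit. The transcription factor genes called went from 6 to 3 with glmTreat against 1.2-fold, a stricter null that also took the proteasome genes lower from 2 to 0. Of the list genes, RFXANK had a log2 fold change of 0.022 and ATF1 of 0.040 with library size only, the reverse of the reported direction, and without 1 sample RFX5 ranged from -0.054 to 0.15 and NFYA from -0.018 to 0.11. None of these 4 genes was called, and the cause was not tested. PSMB5 passed with upper-quartile factors (edgeR adjusted p = 0.0368), and with library size only 6 transcription factor genes rose, against 5. The calls of BCAP31, PSMB7 and RELA were lost with library size only (adjusted p = 0.0595, 0.107 and 0.0642), and that of RFXAP with the DESeq2 Wald test (adjusted p = 0.107). Without shZDHHC15 replicate 1 the MICA call was lost (adjusted p = 0.145), as it was with no filter on low counts (0.0512) and with glmTreat (0.112). BCAP31, PSMB7 and RELA were not called without shCON replicate 2 (adjusted p = 0.152, 0.0943 and 0.0574), without shZDHHC15 replicate 1 (0.133, 0.154 and 0.169) or without shZDHHC15 replicate 2 (0.0646, 0.194 and 0.0799), and RFXAP was lost without any 1 of the 4 samples (0.0528 to 0.104). PSMB5 and ULBP3 passed without shCON replicate 1 (0.0153 and 0.0390), and HFE without shZDHHC15 replicate 2 (0.0215). A fit that leaves out a sample assumes that the lone sample varies like the other group. Over all genes, 2282 were higher with no filter on low counts, and glmTreat gave 2274 higher and 1883 lower, against 3427 and 3217.

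The replicate numbers are shared by the groups but were not shown to pair the samples: same-numbered samples correlated at 0.0344 in their deviations over 15817 genes. With the replicate block all 9 genes stayed higher, PSMB5 passed (adjusted p = 0.0253), and 3723 genes were called higher and 3502 lower. With 2 samples a group, depth and replicate number limit what can be said of genes with few counts, such as HLA-G.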
